A study of Mus musculus with 16 samples.

Results

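Large peritoneal macrophages (LPM) were compared with alveolar macrophages (AM), both sorted from untreated wild-type mice. The comparison rests on 5 of the 16 arrays of the series, chosen by their titles: 3 naive Bhlhe40WT LPM arrays from peritoneal lavage and 2 naive Bhlhe40WT AM arrays from lung digest. The mice were C57BL/6 males with both copies of Bhlhe40 (WT, Bhlhe40+/+). Bhlhe40 encodes a basic helix-loop-helix repressor whose loss the series studies. The same tissues from mice without the gene (KO, Bhlhe40-/-, 3 LPM and 2 AM arrays) gave a second tissue difference. Their values do not enter the WT difference itself. The remaining 6 arrays were LPM of mice given IL-4c on days 0 and 2 and killed on day 4 (WT, KO and LysM-Cre+ Bhlhe40fl/fl). All 16 arrays entered the estimate of spread per gene, the filter on dim genes and the choice of probe set. Each value is a log2 signal of biotin-labelled total RNA on a single-colour Affymetrix mouse gene array, and each signed value is a log2 difference, LPM minus AM. Nothing in the labels says that replicate arrays came from separate animals, so each p-value reflects array-to-array spread, which may be technical.

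Resident macrophages share a myeloid core and take on the programme of the tissue they live in. AM sit at the air surface of the lung, depend on GM-CSF, TGF-beta and the lipid-sensing nuclear receptor PPAR-gamma, and clear surfactant lipid and inhaled particles. LPM float in the peritoneal fluid, depend on M-CSF, and owe much of their programme to GATA6, a zinc finger factor induced by retinoic acid; they are known for taking up dying cells and for complement and clotting proteins.

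The markers of the labelled cells fitted the titles, with exceptions given below. On the 3 LPM arrays Gata6 read 8.92, 8.95 and 8.90, Icam2 read 11.01, 10.87 and 11.04, and Timd4 read 10.21, 10.44 and 10.73. On the 2 AM arrays these genes read 5.0 and 4.22, 5.15 and 4.64, and 4.55 and 4.39. Siglecf, the lectin used to sort AM, read 8.90 and 8.99 on the AM arrays and 5.06, 4.99 and 5.06 on the LPM arrays. Genes of all macrophages lay close together only in part. Lyz2, a lysozyme, differed by 0.01 and Spi1, the myeloid master factor PU-1, by -0.16, neither called. Cd68 was slightly lower in LPM (-0.50, adjusted p = 0.0051, limma). Csf1r, the M-CSF receptor, was higher in LPM and the receptor kinase Mertk higher in AM, with values given below.

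Array medians lay between 4.81 and 4.90, and 1035 probe sets for olfactory receptors, taken as mostly unexpressed here, gave a guide to background, with a 95th percentile between 4.37 and 4.52. The WT LPM arrays correlated with each other at 0.994 to 0.995, the WT AM arrays at 0.990, and LPM with AM at 0.942 to 0.944 (Pearson's r over all probe sets of an array pair; probe sets are no replicates). Markers of other cells were measured as lists. Of 13 B cell markers measured, 5 were at background on all 5 arrays. Of 8 tested, 4 were higher in LPM (2 when the dim filter used the 5 compared arrays only), against 21.2% of all genes tested. The mean log2 signal of the list was 4.17 and 4.13 on the AM arrays and 4.83 to 4.94 on the LPM arrays. The defining factors Pax5 and Ebf1 were at background. All 8 tested genes lay above 0 (median 0.60), 3 of them called and past 2-fold in LPM, and Cd79a was among the 4 called. Of 21 lung epithelial markers, 9 were at background on all 5 arrays. Of 12 tested, 6 were higher in AM and 1 in LPM, against 17.1% and 21.2% of all genes tested. The list means were 5.03 and 5.29 on the AM arrays and 4.12 to 4.31 on the LPM arrays. Of 12 dendritic cell, monocyte and small peritoneal macrophage markers, 6 were at background on all 5 arrays; of 6 tested, 4 were higher in LPM (Mgl2, Cd209a, Plac8 and Ccr2; 2 without AM replicate 1) and 1 in AM (Clec9a; 2 in AM without AM replicate 2), with list means of 4.16 and 4.05 in AM and 4.36 to 4.42 in LPM. Neutrophil markers split, with 2 of 6 higher in LPM (1 without AM replicate 2) and 2 in AM (1 when the dim filter used the 5 compared arrays only). Of 15 T and NK cell markers, 9 were at background on all 5 arrays, with list means of 4.04 and 3.91 in AM and 3.69 to 3.80 in LPM. Hdc was the 1 eosinophil and mast cell marker higher in LPM (2 without a dim filter) and Pf4 the 1 erythrocyte and platelet marker. Endothelial, stromal and mesothelial markers had 1 of 7 higher in LPM (Lyve1) and 2 in AM (Vwf and Krt19). AM replicate 2 stood apart for secreted epithelial products: the surfactant gene Sftpc read 3.82 and 6.57 and the club cell gene Scgb1a1 read 4.86 and 6.36 on AM replicates 1 and 2. Without AM replicate 2 the Sftpc difference was -0.33 (adjusted p = 0.26, limma). Of the dissociation stress and immediate early genes, 11 of 29 tested were higher in AM and 8 in LPM. Past 2-fold were 9 in AM and 4 in LPM, against 7.13% and 8.26% of all genes tested. The other counts of calls in this paragraph stand against 17.1% (AM) and 21.2% (LPM) of all genes tested. Tissue and dissociation cannot be told apart, since all AM came from a digest and all LPM from lavage, and the part of other cells in any result was not tested.

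A large share of the genes that could be tested differed between the WT macrophages of the 2 tissues. Of 11634 genes tested, 4452 (38.3%) passed an adjusted p under 0.05 with limma, 2468 (21.2%) higher in LPM and 1984 (17.1%) higher in AM. A stricter rule that also asks for a 2-fold difference was met by 1791 genes (15.4%), 961 (8.26%) higher in LPM and 830 (7.13%) higher in AM. On 1789 of these 1791 genes the AM and LPM arrays did not overlap. A 2-fold rule at a median within-group SD of 0.171 makes this likely, so the count adds no further support. The median difference over all genes was 0.016, so neither tissue was shifted as a whole on this scale; RMA, which made the values, equalises the arrays and removes any difference in total RNA per cell. In sorted bulk samples, fewer cells of a type that express a gene and less RNA per cell cannot be told apart. The largest differences were on-off patterns at the limit of the array: 89 genes were at least 16-fold higher in LPM and 80 in AM, and for 48 and 48 of them every array of the lower tissue was at or below the olfactory level. For such a gene the fold is a lower bound against that level and is written as at least. Gata6, Timd4, Clec4n, Aldh1a2, Bhlhe41, Irf7, Maff, Dgat2, Clec4a1, Eng, Itgb7 and Rtp4 were above that level on only 1 array of the lower tissue, and P2ry13 on 2 of 3, so their folds are ratios of means that lie at or near background.

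**Figure D1:**
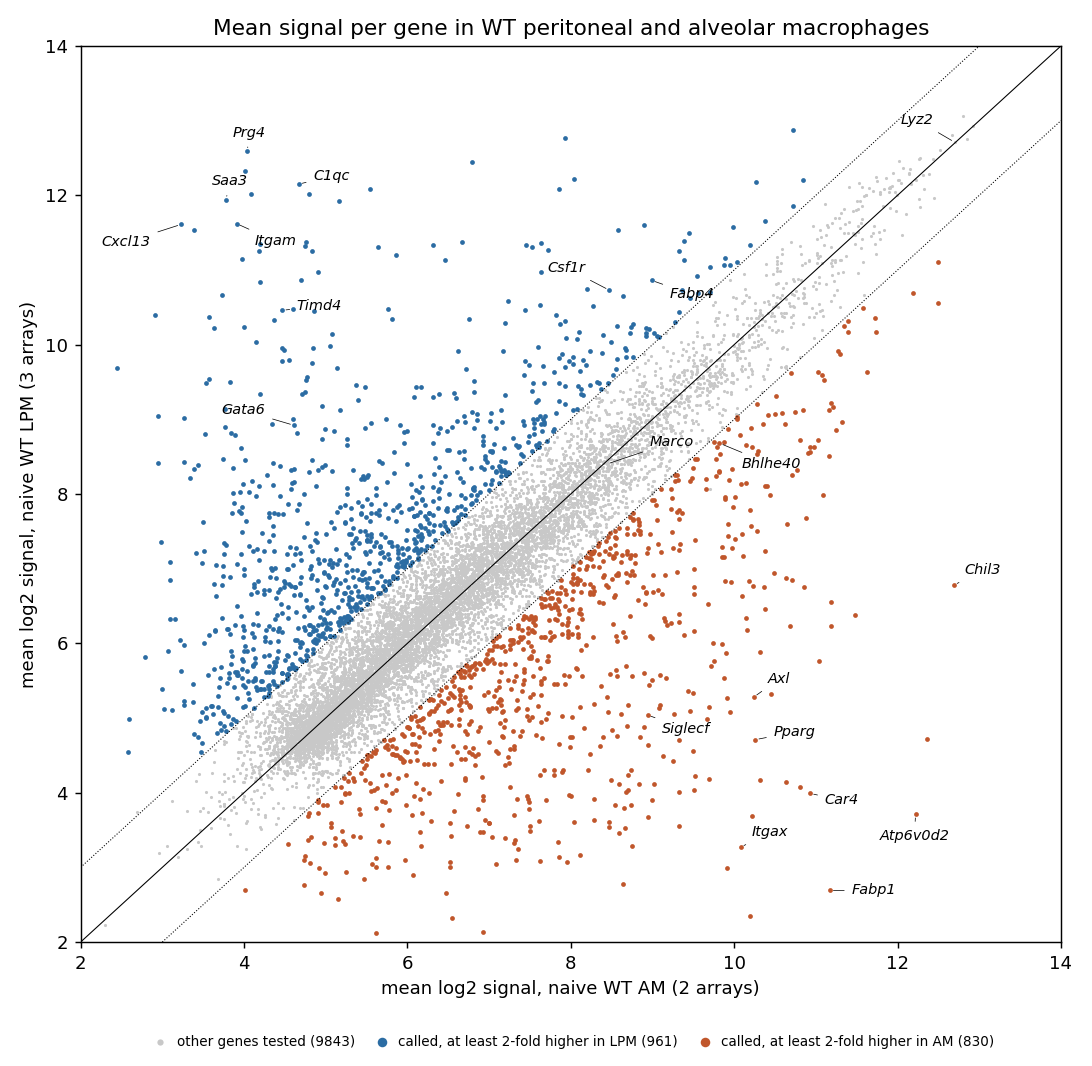
Mean log2 signal of each of 11634 tested genes on the 2 WT AM arrays (x axis) and the 3 WT LPM arrays (y axis). Blue points are the 961 genes and orange points the 830 genes called and at least 2-fold higher in LPM or AM; dotted lines mark 2-fold, and Marco and Lyz2 lie on the diagonal.

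The 12 genes furthest toward LPM were led by secreted proteins and surface receptors. Prg4 (lubricin, a lubricating glycoprotein; Entrez 96875, chromosome 1, 150449412 to 150466221, GRCm38.p6) read 12.61, 12.63 and 12.53 in LPM and 3.98 and 4.10 in AM, at least 270-fold higher in LPM (log2 difference 8.55 ± 0.12 SE, adjusted p = 1e-16, limma). Cxcl13, the chemokine that draws B cells to the body cavities, was at least 137-fold higher, and Alox15, the lipoxygenase that makes specialised lipid mediators, at least 225-fold. The acute-phase protein Saa3 was at least 172-fold higher and Vsig4, a receptor for complement fragments, at least 130-fold. Serpinb2, an inhibitor of plasminogen activators, was at least 182-fold higher and its neighbour Serpinb10 at least 36.3-fold. Itgam, the alpha chain of complement receptor CR3 (CD11b), read 11.69, 11.57 and 11.61 in LPM and 4.02 and 3.81 in AM, at least 138-fold higher. The fatty acid binding protein Fabp7 was at least 99.5-fold higher and the membrane protein Ifitm6 at least 59.1-fold. C1qc, a chain of complement C1q, was 179-fold higher (7.49 ± 0.13) and Thbs1, thrombospondin, 150-fold (7.23 ± 0.27); both read just above the olfactory level in AM. Every one of these genes was high on all 3 LPM arrays and low on both AM arrays. Arrays without overlap were a condition of their choice, so this is no separate result.

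The 12 genes furthest toward AM held lipid-handling proteins, lysosomal proteins and surface receptors. Atp6v0d2, a subunit of the proton pump that acidifies the lysosome (Entrez 242341, chromosome 4, 19876838 to 19922566), read 12.33 and 12.11 in AM and 3.47, 3.97 and 3.68 in LPM, at least 221-fold higher in AM (-8.51 ± 0.29, adjusted p = 5.6e-13, limma). Fabp1, the fatty acid binding protein best known from liver, read 11.26 and 11.08 in AM and 2.73, 2.46 and 2.88 in LPM, at least 107-fold higher. Cidec, a lipid droplet protein, was at least 59.6-fold higher, Ctsk, the protease cathepsin K, at least 83.5-fold, and Car4, a membrane carbonic anhydrase, at least 90.6-fold. Itgax, the integrin chain CD11c, read 9.94 and 10.22 in AM and 3.51, 3.13 and 3.17 in LPM, at least 50.3-fold higher. The adaptor Sh2d1b1 was at least 54.2-fold higher, the keratin Krt19 at least 55.5-fold and the leptin receptor Lepr at least 18.6-fold. Plet1, a surface protein of epithelia, was 200-fold higher (-7.64 ± 0.25), the lectin Clec4n (Dectin-2) 89.8-fold (-6.49 ± 0.19; above the olfactory level on 1 of 3 LPM arrays) and Chil3, the secreted chitinase-like protein Ym1, 60.0-fold (-5.91 ± 0.41). Chil3 shares near-identical sequence with Chil4, so its signal may be split or shared between them. All 12 were high on both AM arrays and low on all 3 LPM arrays, again under the condition that arrays do not overlap.

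Itgam and Itgax show how sharply neighbouring genes can differ. Their gene bodies lie 11 kb apart on chromosome 7 (Itgam 128062640 to 128118491, Itgax 128129526 to 128150657, GRCm38.p6), and each was near background in the tissue where the other was high. Their promoters, from 250 bases before to 50 after the start, are shown with that of Fabp1, high in AM, and that of Serpinb10, high in LPM (RefSeq, GRCm38.p6, plus strand, 5′ to 3′). Capitals mark matches, on either strand, to 4 kinds of short word. GATA factors are known to bind AGATAA or the variant TGATAA. Nuclear receptors bind pairs of the word AGGTCA, which reads TGACCT in reverse. Bhlhe40 binds the E-box CACGTG. The ETS factor Spi1 favours GAGGAAGT within longer sites.
Itgam, chr7:128062390-128062689: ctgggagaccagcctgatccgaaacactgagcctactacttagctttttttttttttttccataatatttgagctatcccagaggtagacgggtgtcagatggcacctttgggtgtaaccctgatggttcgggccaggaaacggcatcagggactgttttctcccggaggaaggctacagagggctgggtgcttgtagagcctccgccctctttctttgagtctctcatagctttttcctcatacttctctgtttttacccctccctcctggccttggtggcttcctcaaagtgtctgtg
Itgax, chr7:128129300-128129599: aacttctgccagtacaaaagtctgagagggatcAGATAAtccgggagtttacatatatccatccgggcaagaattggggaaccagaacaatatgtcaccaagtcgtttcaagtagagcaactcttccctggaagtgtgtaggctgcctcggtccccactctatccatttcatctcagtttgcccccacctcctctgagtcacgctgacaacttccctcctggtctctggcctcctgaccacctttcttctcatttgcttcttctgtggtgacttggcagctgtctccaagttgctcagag
Fabp1, chr6:71199629-71199928: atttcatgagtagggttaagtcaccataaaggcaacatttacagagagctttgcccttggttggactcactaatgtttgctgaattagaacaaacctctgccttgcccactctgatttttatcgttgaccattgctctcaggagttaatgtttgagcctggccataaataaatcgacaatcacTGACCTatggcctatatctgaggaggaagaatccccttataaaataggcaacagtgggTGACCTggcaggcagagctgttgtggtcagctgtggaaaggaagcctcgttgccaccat
Serpinb10, chr1:107528753-107529052: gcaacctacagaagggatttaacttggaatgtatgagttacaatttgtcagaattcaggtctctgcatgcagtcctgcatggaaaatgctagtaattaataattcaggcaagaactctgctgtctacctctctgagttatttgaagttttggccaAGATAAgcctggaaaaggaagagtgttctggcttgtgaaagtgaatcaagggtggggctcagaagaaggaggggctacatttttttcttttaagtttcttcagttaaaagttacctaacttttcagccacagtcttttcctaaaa
The Itgam window holds no match. Itgax, high in the tissue without Gata6, has a GATA word whose first base lies at -217 from the start, and Serpinb10 has one at -95. Fabp1 has the nuclear receptor word at -67 and at -9. These matches are letters in a window and say nothing of binding. Across genes, with no test made, a GATA word lay in 11.3% of the 982 promoters of genes at least 2-fold higher in LPM, in 12.6% of the 936 promoters of those higher in AM, in 10.3% of the promoters of all genes tested and in 18.6% of the whole table. The nuclear receptor word lay in 11.8%, 13.6%, 13% and 16.3%, the E-box in 8.04%, 11.8%, 9.96% and 7.15%, and the ETS word in 4.28%, 4.91%, 3.11% and 3.20%, in the same order.

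Identity genes of each tissue followed the label in most cases. Of the 28 tested genes of the peritoneal list, 24 were higher in LPM and 1 in AM (median 5.24), against 21.2% and 17.1% of all genes. These shares of all genes also apply to each list count below. Of the 26 tested genes of the alveolar list, 23 were higher in AM and 1 in LPM (median -4.67). Beyond the genes named above, the clotting factor F5 was at least 71.4-fold higher in LPM and Aspa, an aspartoacylase, at least 31.8-fold; the phosphatidylserine receptor Timd4 was 63.5-fold and the adhesion molecule Icam2 67.6-fold higher. Adgre1, the F4/80 antigen, was present in both and 4.13-fold higher in LPM. In AM, Pparg (Entrez 19016, chromosome 6, 115360879 to 115490404) was 46.8-fold higher and Siglecf 15.0-fold.

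A few genes went against the list they were placed in. Fabp4, the adipocyte fatty acid binding protein and a much used AM marker, read 9.05 and 8.94 in AM and 10.82, 10.88 and 10.88 in LPM, 3.66-fold higher in LPM (1.87 ± 0.21, adjusted p = 2e-06, limma). Marco, a scavenger receptor for particles, read 8.4 and 8.49 in AM and 8.35, 8.24 and 8.59 in LPM; its difference was -0.05 (95% interval -0.77 to 0.67), and the arrays overlapped. Fabp5 differed by -0.25 (95% interval -0.62 to 0.13), with its 2 probe sets giving the same difference. Among peritoneal genes, the tetraspanin Cd9 was high in both and higher in AM (-1.36, adjusted p = 1.6e-06). Among fatty acid binding proteins, Fabp7 and Fabp4 thus lay higher in LPM and Fabp1 in AM, while Fabp5 did not pass. Fabp3 was also called higher in LPM, with 0.87 and 1.31 on its 2 probe sets, but lost its call under 4 alternatives.

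**Figure D2:**
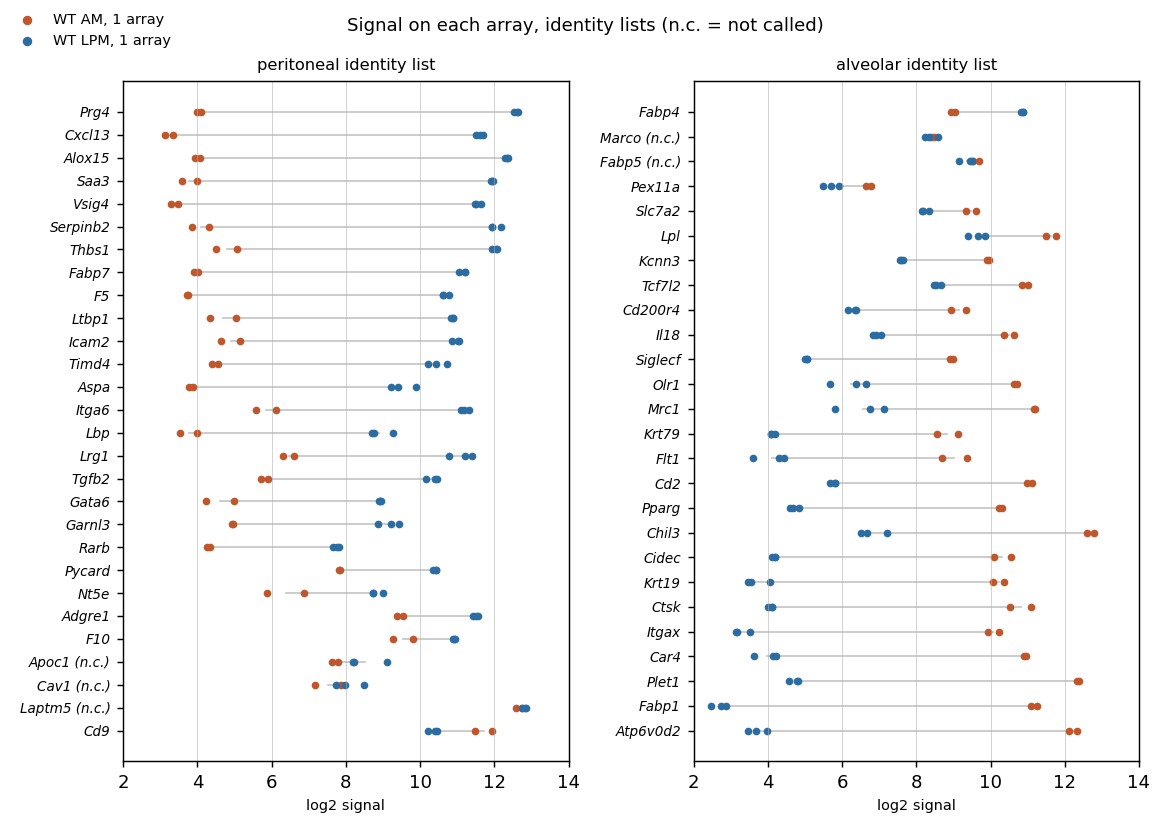
Log2 signal (x axis) of the tested genes of both identity lists on each WT array; orange points are the 2 AM arrays, blue points the 3 LPM arrays, grey lines join the means, and n.c. marks genes not called. Fabp4 lies to the right in LPM although it is on the alveolar list, and the Marco points overlap.

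Transcription factors separated the tissues in both directions. Gata6 was 19.8-fold higher in LPM (4.31 ± 0.17, adjusted p = 5.5e-12, limma), and Pparg, which read 10.30 and 10.22 in AM and 4.60, 4.69 and 4.85 in LPM, was the most different nuclear receptor (-5.55 ± 0.16, adjusted p = 1.1e-13). Of 27 lineage and zinc finger factors tested, 11 were higher in LPM and 8 in AM. With Gata6 stood the ETS factors Etv1 and Etv5, each at least 9.36-fold higher, and Klf2, a quiescence and migration factor, 5.20-fold higher. Toward AM lay Egr2, 34.3-fold higher (11.37 and 11.60 against 6.24, 6.28 and 6.63), Prdm1 (Blimp-1), at least 16.5-fold, and Runx1, 7.68-fold. Klf4 was also higher in AM, 2.22-fold, so Klf2 and Klf4 differed in opposite directions. Spi1, Ikzf1 and Elf1 were not called.

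Among 19 nuclear receptors, 6 were higher in LPM and 9 in AM. The retinoic acid receptors split: Rarb, itself a retinoic acid target, was at least 9.36-fold and Rarg 4.30-fold higher in LPM, while Rara was slightly higher in AM (-0.68). The rest of the retinoic acid list (16 tested, 6 higher in LPM, 3 in AM) included Aldh1a2, which makes retinoic acid, 4.37-fold higher in LPM. Cyp26a1, which breaks it down, read 5.97, 4.64 and 5.03 in LPM and 3.38 and 3.36 in AM, a called difference of 1.85 that missed the threshold without either AM array (1.86 and 1.84, adjusted p = 0.052 and 0.053, limma). Tgm2, a transglutaminase also counted as a retinoid target, went the other way and was 15.9-fold higher in AM. The clock repressor Nr1d1 was 2.31 higher on the log2 scale in LPM. In AM the orphan receptors Nr4a1 (10.9-fold), Nr4a2 (-3.51) and Nr4a3 (at least 12.8-fold), the vitamin D receptor Vdr (at least 8.17-fold) and the oxysterol receptor Nr1h3 (LXR-alpha, 3.11-fold) were higher. Nr4a and Egr genes also respond to cell handling, and the values of that list stand above.

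Of 51 bZIP, bHLH, IRF and STAT factors, 16 were higher in LPM and 18 in AM. Bhlhe40 read 9.57 and 10.07 in AM and 8.66, 8.75 and 8.64 in LPM, 2.19-fold higher in AM (-1.13 ± 0.17, adjusted p = 5.7e-05, limma). Its close relative Bhlhe41 was near background in LPM at 3.84, 4.73 and 3.94 and read 8.25 and 8.73 in AM, 20.0-fold higher by the ratio of means, with 1 of 3 LPM arrays above the olfactory level. Of the interferon regulatory factors, these were higher in LPM: Irf7 4.78-fold, Irf2 3.57-fold, Irf1 3.11-fold, Irf5 2.61-fold and Irf4 at least 2.86-fold, while Irf8 was not called (-0.25). Stat4, the signal transducer of IL-12, was at least 5.89-fold higher in LPM. Maf, a macrophage maturation factor, was 3.12-fold higher in LPM. In AM, Maff (28.3-fold), Fosb (-4.10), Tfec (6.46-fold) and Atf3 (-2.36) were higher. Cebpb differed by -0.10 (95% interval -0.37 to 0.16), and Myc, 1.53-fold higher in LPM, lost its call without AM replicate 1 or LPM replicate 1.

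**Figure D3:**
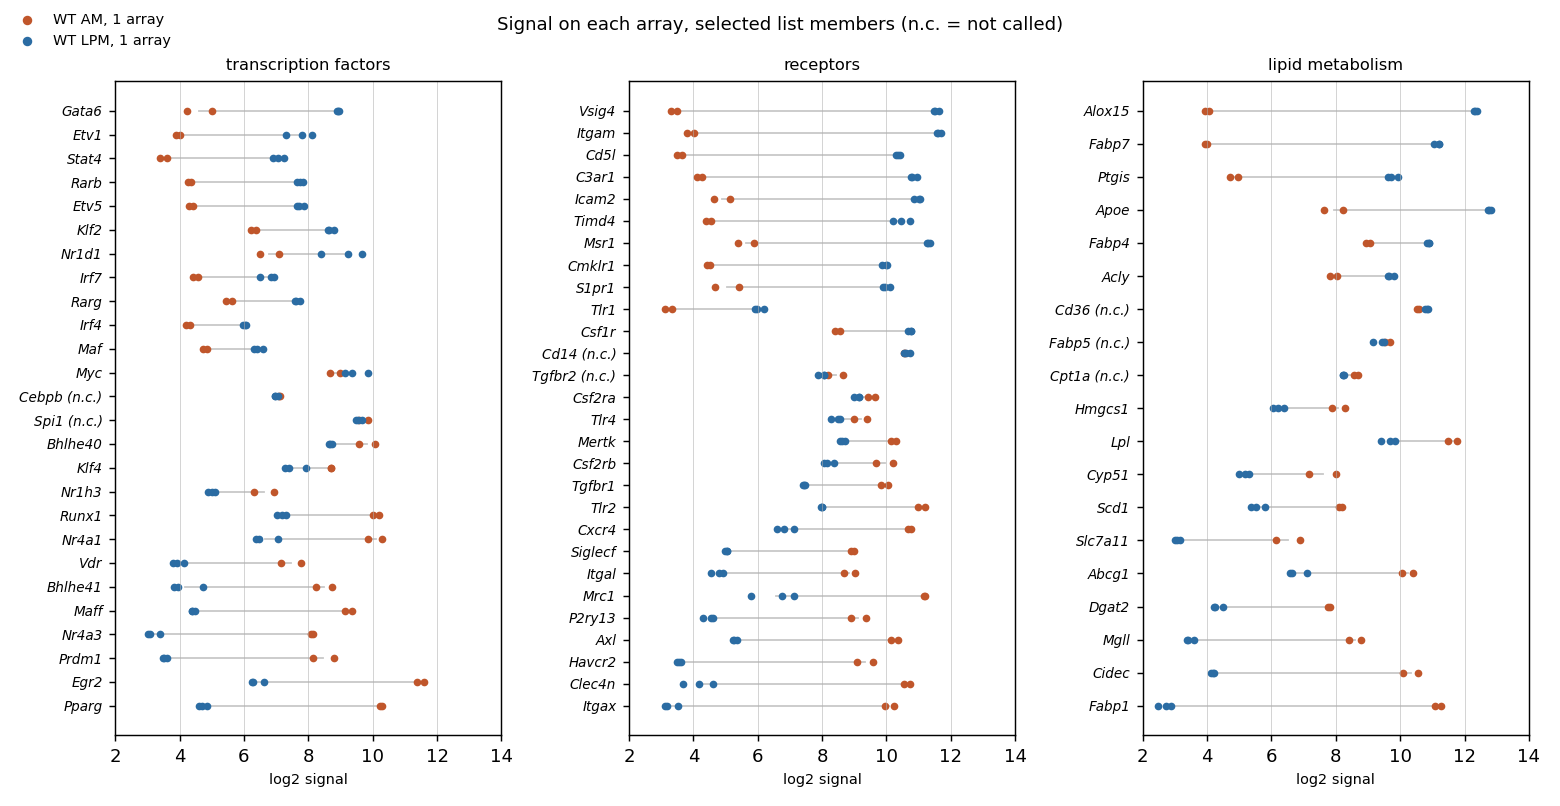
Log2 signal (x axis) of transcription factors, receptors and lipid genes on each WT array; orange points are the 2 AM arrays, blue points the 3 LPM arrays, grey lines join the means, and n.c. marks genes not called. Gata6 and Pparg mark the ends of the left panel, Vsig4 and Itgax those of the middle panel, and Alox15 and Fabp1 those of the right panel.

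More genes of fatty acid metabolism were higher in AM than in LPM. Of 29 genes of fatty acid uptake, binding and storage, 15 were higher in AM and 6 in LPM (median -0.38), and of 26 genes of fatty acid oxidation 13 were higher in AM and 3 in LPM (median -0.41; 1 in LPM without AM replicate 1). Mgll, which splits monoglycerides, read 8.4 and 8.79 in AM and 3.38, 3.42 and 3.60 in LPM, at least 17.9-fold higher; Dgat2, the last step of triglyceride synthesis, was 11.1-fold higher, Gpat3 7.72-fold and Dgat1 3.71-fold. Lpl, which frees fatty acids from lipoproteins, was 3.99-fold higher in AM and the droplet coat protein Plin2 2.14-fold. The uptake receptor Cd36 was high in both, at 10.52 and 10.57 in AM and 10.77, 10.87 and 10.84 in LPM, and was not called (0.28). The oxidation differences were smaller: the largest was the thioesterase Acot1, at least 2.21-fold higher, and the entry enzyme Cpt1a missed the threshold (-0.39, adjusted p = 0.063, limma). Lipe, a hormone-sensitive lipase, went toward LPM by 1.10.

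Cholesterol synthesis showed a single direction among its calls: 11 of 20 tested genes were higher in AM and 0 in LPM (median -0.66). Cyp51, a sterol demethylase, read 7.18 and 8.02 in AM and 4.98, 5.19 and 5.31 in LPM, 5.43-fold higher, and Hmgcs1, which feeds the mevalonate pathway, was 3.65-fold higher. The list's regulator Srebf2 was not called (-0.32), and without AM replicate 2 1 of its genes was called higher in LPM. Efflux and oxysterol targets were mixed, with 10 of 17 higher in AM and 4 in LPM. Abcg1, which exports cholesterol, was 11-fold, the desaturase Scd1 5.98-fold and Ch25h, which makes 25-hydroxycholesterol, at least 7.36-fold higher in AM. Apoe, the lipoprotein that accepts cholesterol, read 12.72, 12.77 and 12.81 in LPM and 8.23 and 7.63 in AM, 28.6-fold higher in LPM, with Pltp (3.81-fold) and Cyp27a1 (3.84-fold). Abca1 was not called (-0.44).

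Few oxidative phosphorylation genes differed. Of 34 oxidative phosphorylation genes, 2 were higher in LPM and 4 in AM, fewer than the 38.3% of all genes, and 0 reached 2-fold; the count in LPM was 1 without AM replicate 1, AM replicate 2 or LPM replicate 1 and 0 without LPM replicate 2, and without LPM replicate 3 the count in AM was 2; after a second quantile normalization it was 7. Of 24 genes of the tricarboxylic acid cycle and its branches, 6 were higher in LPM and 4 in AM; Acly, which makes cytosolic acetyl-CoA, was 3.42-fold higher in LPM and Me1 at least 2.02-fold, and the LPM count was 3 without AM replicate 1, LPM replicate 1 or LPM replicate 2, after median centring and without a dim filter. The counts of the tricarboxylic acid list lay near the 21.2% (LPM) and 17.1% (AM) of all genes tested. Phosphofructokinase isoforms went opposite ways: Pfkl was 4.55-fold higher in LPM and Pfkp 3.50-fold higher in AM. The aldolase Aldoc was 6.64-fold higher in AM. Of the glycolysis and pentose phosphate list, 2 genes were higher in LPM. Of the 23 tested, 7 were higher in AM, 4 without AM replicate 2.

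More redox and amino acid genes were higher in AM than in LPM. The cystine importer Slc7a11 read 6.15 and 6.90 in AM and 3.15, 3.00 and 3.06 in LPM, at least 4.27-fold higher, with the glutathione enzymes Mgst3 (7.81-fold) and Gclc (2.49-fold) and the thioredoxin reductase Txnrd1 (3.06-fold); 12 of 28 genes of that list were higher in AM and 6 in LPM. Of 20 amino acid genes, 12 were higher in AM and 3 in LPM. Kynu, of tryptophan breakdown, was at least 14.5-fold and the transporter Slc7a5 5.46-fold higher in AM. Arg1, arginase, went the other way, at 8.36, 8.05 and 7.91 in LPM and 4.92 and 4.83 in AM, 9.38-fold higher in LPM. Of 17 iron genes, 6 were higher in LPM and 7 in AM (4 without AM replicate 1). Ceruloplasmin (Cp) was at least 4.38-fold higher in LPM and Alas1, of heme synthesis, 5.01-fold higher in AM.

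Eicosanoid genes differed in both directions, with 9 of 21 tested higher in LPM and 6 in AM (median 0.07). Besides Alox15, the prostacyclin synthase Ptgis read 9.70, 9.62 and 9.94 in LPM and 4.97 and 4.70 in AM, 30.2-fold higher. Pla2g7, which degrades platelet-activating factor, was 48.0-fold higher and Ltc4s, the leukotriene C synthase, 2.82-fold; Lta4h, which leads to leukotriene B, was 2.27-fold higher in AM. Alox5, upstream of both leukotriene branches, was not called (0.17).

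Lysosomal genes were mostly expressed in both tissues: of 37 tested, 17 were higher in AM and 11 in LPM (7 without AM replicate 1). The large differences were few. Atp6v0d2, Ctsk and Acp5 (15.4-fold), all genes that osteoclasts also use, lay toward AM, and Lyz1 was 18.9-fold higher in LPM. Lyz1 read 8.81 and 6.88 on the 2 AM arrays and shares near-identical sequence with Lyz2, which did not differ, so its value is uncertain.

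Receptors for particles and dying cells split by tissue. Of 31 complement, Fc and efferocytosis receptors, 14 were higher in LPM and 8 in AM. With Vsig4, Itgam and Timd4, the anaphylatoxin receptor C3ar1 lay toward LPM, at least 80.1-fold higher. The receptor kinases that bind dying cells through bridging proteins lay toward AM: Axl read 10.13 and 10.35 in AM and 5.25, 5.23 and 5.36 in LPM, 31.1-fold higher, and Mertk, expressed in both, was 3.01-fold higher. Havcr2 (TIM-3) was at least 30.0-fold higher in AM, so the TIM family members Timd4 and Havcr2 differed in opposite directions. Among 20 scavenger receptors, 9 were higher in LPM and 5 in AM; Cd5l (at least 57.8-fold), Msr1 (50.7-fold) and Cd93 (17.0-fold) lay toward LPM, and Mrc1, the mannose receptor (24.6-fold), and Olr1 (21.8-fold) toward AM.

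Lectin receptors lay more toward AM, with 15 of 27 tested higher there and 9 in LPM. Clec7a (Dectin-1), which binds fungal glucan, was 6.12-fold, Siglec1 7.24-fold, and Cd22 5.93-fold higher in AM, while Clec4a1 was 13.6-fold higher in LPM; the Clec4a genes are close paralogs and their probe sets may share signal. Of 26 Toll-like and other pattern receptors, 12 were higher in LPM and 5 in AM. Tlr2 read 10.98 and 11.20 in AM and 7.99, 8.0 and 7.96 in LPM, 8.65-fold higher in AM, whereas its partner Tlr1 was near background in AM and at least 2.87-fold higher in LPM. Cd180 (4.76-fold) and its partner Ly86 (8.53-fold), which tune Toll signalling, lay toward LPM, as did Ly96 (3.37-fold), while Tlr4 was 1.69-fold higher in AM and Cd14 was not called (0.07). The inflammasome sensor Nlrp3 was 4.74-fold higher in AM.

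Receptors for the growth factors on which these cells depend differed for some chains and not for others. Csf1r, the M-CSF receptor, read 10.68, 10.76 and 10.75 in LPM and 8.4 and 8.55 in AM, 4.78-fold higher in LPM (2.26 ± 0.12, adjusted p = 1.5e-10, limma). Csf2rb, the signalling chain of the GM-CSF receptor, was 3.35-fold higher in AM, while its ligand-binding chain Csf2ra differed little (-0.45, adjusted p = 0.016; lost without AM replicate 2 or LPM replicate 1). Of the TGF-beta receptors, Tgfbr1 was 5.61-fold higher in AM and Tgfbr2 was not called (-0.42, 95% interval -0.81 to -0.03, adjusted p = 0.082). Over the list of 39 cytokine and growth factor receptors, 16 were higher in LPM and 12 in AM. The granulocyte receptor Csf3r was 7.70-fold and the accessory TGF-beta receptor Eng 8.51-fold higher in LPM.

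Receptors that guide and anchor cells differed in both directions. Of 36 integrins and adhesion molecules, 14 were higher in LPM and 15 in AM. Itga6, a laminin receptor, was 40.5-fold and Itgb7 10-fold higher in LPM, and Itgal (CD11a) 17.1-fold higher in AM. Itgad, beside Itgax in the genome, was read by 2 probe sets that disagreed (0.34 and -1.82) and is not placed. Of 10 chemokine receptors tested, 4 lay each way, and 2 toward LPM without AM replicate 1. Cmklr1, the chemerin receptor, was at least 43.5-fold higher in LPM and Cxcr4 14.5-fold higher in AM. Of 28 purinergic and other G-protein-coupled receptors, 16 were higher in LPM and 7 in AM. S1pr1, the sphingosine phosphate receptor of cell egress, was 30.6-fold higher in LPM, with the adhesion receptors Adgre4 (at least 32.5-fold) and Adgre5 (26.3-fold); P2ry13 (25.1-fold) and P2ry6 (7.41-fold), which sense nucleotides, lay toward AM.

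Complement components showed a single direction. All 9 complement components tested were higher in LPM (median 3.97; a further 9 were at background on all 5 arrays). A gene could pass the dim filter on LPM arrays alone, and C1qc (4.65 and 4.69) read below the medians of the WT AM arrays (4.90 and 4.81). The single direction is therefore partly set by the filter and adds no further support. C1qa and C1qb, beside C1qc on chromosome 4, were 98.0-fold and 95.3-fold higher. C1qa read 11.18, 11.44 and 11.52 in LPM and 4.82 and 4.70 in AM. C4b was at least 115-fold higher, with the caveat that C4a and C4b are near-identical, and properdin (Cfp), which stabilises the alternative pathway, was 11.7-fold higher. Of 15 clotting and fibrinolysis genes, 6 were higher in LPM and 4 in AM (median -0.08). F13a1, which cross-links fibrin, read 7.63, 9.04 and 9.18 in LPM and was at least 17.2-fold higher; F10 was 2.59-fold higher and present in both. Of 20 antimicrobial, granule and lipid-carrying proteins, 12 were higher in LPM and 3 in AM (1 when the dim filter used the 5 compared arrays only), among the former Lbp, which hands lipopolysaccharide to its receptor, at least 21.0-fold.

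Over 32 cytokines and growth factors, 14 were higher in AM and 8 in LPM (median -0.12). Il1b read 9.09 and 8.79 in AM and 3.86, 3.42 and 3.75 in LPM, at least 22.8-fold higher, Tnf 34.9-fold, Il1a 15.8-fold, the IL-1 antagonist Il1rn 20.7-fold and Il18 11.7-fold. Of the growth factors, Tgfb2, a TGF-beta isoform, was 23.2-fold higher in LPM, Bmp2 at least 5.22-fold and Wnt2 at least 6.42-fold, with Retnla, a resistin-like protein of alternative activation, 85.6-fold higher at 10.83, 11.48 and 11.45. Pdgfc was at least 8.34-fold higher in AM. Vegfa was 2.23-fold higher in AM and missed the threshold without AM replicate 2 (adjusted p = 0.055, limma). Chemokines were mixed, with 7 of 23 higher in LPM and 9 in AM, or 14 in AM when only the 5 compared arrays were fitted. Beside Cxcl13, Pf4 (109-fold), the eosinophil attractant Ccl24 (at least 56.2-fold) and Ccl9 (8.18-fold) lay toward LPM, and Ccl3 (5.12-fold) toward AM. Ccl2 was not called (-1.64, adjusted p = 0.056, limma). The immediate early genes Fosb, Atf3, Egr2 and Nr4a1 were higher on the same AM arrays, while Jun (-0.05), Dusp1 (0.28) and Egr1 (-0.97) were not called; their part in the cytokine values was not tested. Of 17 metalloproteases and inhibitors, 6 were higher in LPM and 4 in AM, or 7 in AM when only the 5 compared arrays were fitted; Timp2 was 10.1-fold higher in LPM and Mmp19 13.3-fold in AM.

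Antigen presentation and interferon genes went opposite ways. Of 10 MHC class II genes and co-stimulators, 8 were higher in AM and 2 in LPM (median -1.14; 1 in LPM without either AM array). H2-Ab1 read 10.84 and 10.83 in AM and 8.92, 9.21 and 9.25 in LPM, 3.27-fold higher, Cd74 4.09-fold and H2-Eb1 3.02-fold. Cd86, one of the 2 toward LPM, read 6.02 and 7.18 in AM, and its difference of 1.03 was 0.45 without AM replicate 1 (adjusted p = 0.30, limma). Of 20 interferon-stimulated genes, 13 were higher in LPM and 0 in AM (median 1.06), led by Rtp4 (15.2-fold) and the antiviral synthetase Oas2 (at least 9.02-fold), while Ifit1 (0.80), Ifit3 (-0.04) and Rsad2 (0.24) were not called.

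The D cyclins went opposite ways, and more replication and mitosis genes were higher in AM than in LPM. Ccnd1, cyclin D1, read 9.77, 9.44 and 9.87 in LPM and 5.39 and 4.88 in AM, 23.5-fold higher in LPM, and Ccnd2, cyclin D2, read 9.48 and 9.97 in AM and 5.66, 5.56 and 5.89 in LPM, 16.2-fold higher in AM. Of 36 replication and mitosis genes, 13 were higher in AM and 2 in LPM (median -0.51; 1 in LPM without AM replicate 2), with 3 and 1 past 2-fold. The mitotic checkpoint kinase Bub1b was 4.68-fold higher in AM, and the replication clamp Pcna was 1.85-fold higher. The proliferation marker Mki67 was not called (-0.54, 95% interval -1.11 to 0.04, adjusted p = 0.14, limma). The count toward AM was 26 when only the 5 compared arrays were fitted and 21 with the replicate number as a block, settings under which Mki67 was called.

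**Figure D4:**
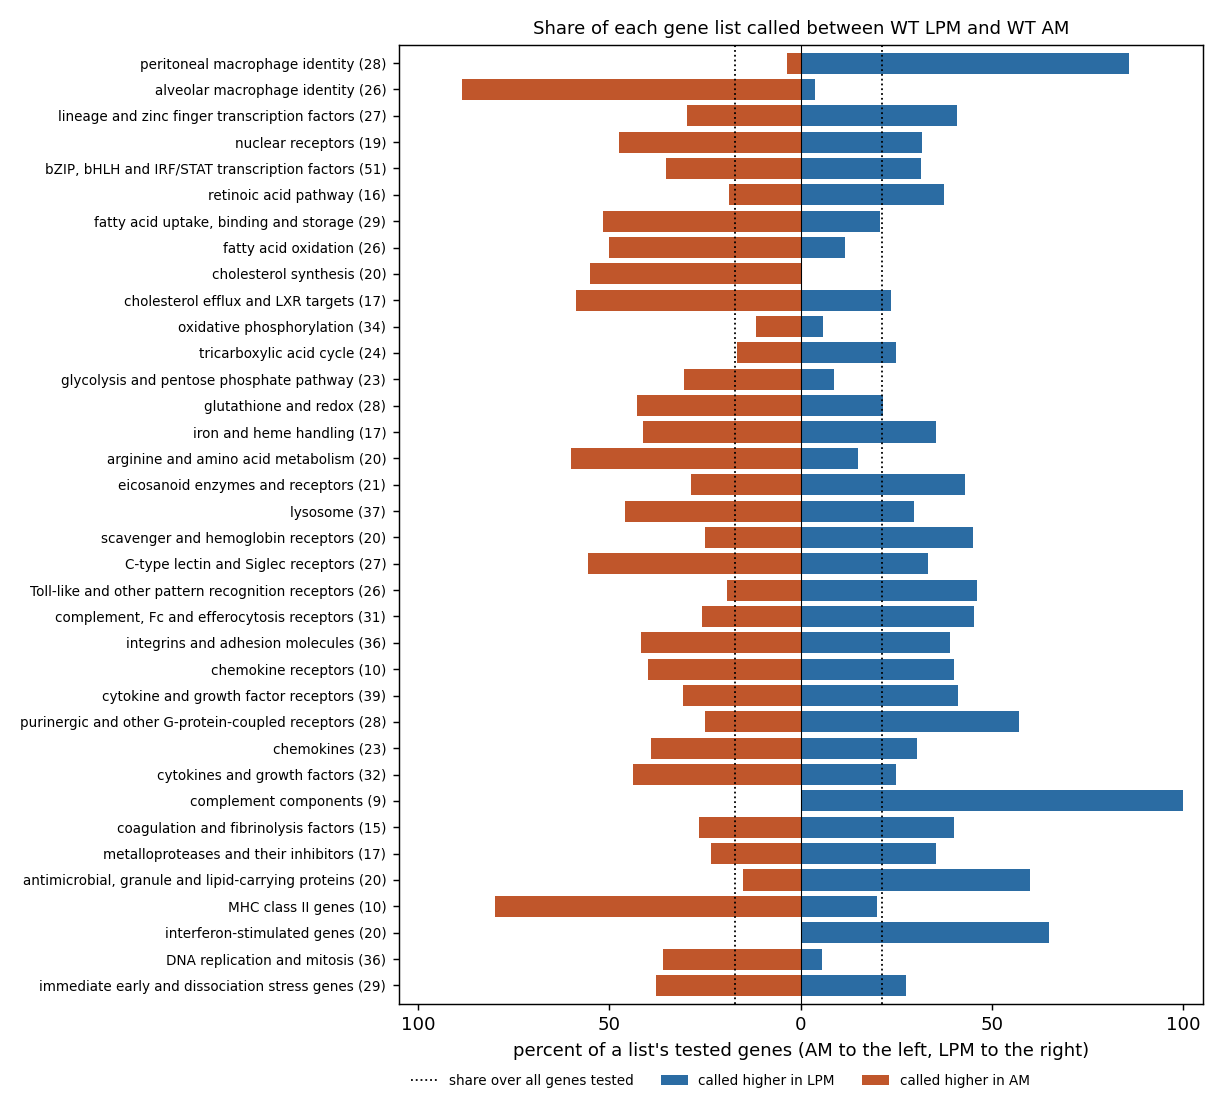
Percent of the tested genes of each list (number in brackets) called higher in LPM (blue, to the right) or in AM (orange, to the left); dotted lines mark the 21.2% and 17.1% of all genes tested. Complement components lie wholly to the right, cholesterol synthesis wholly to the left, and oxidative phosphorylation falls inside both lines.

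The KO arrays, whose values do not enter the WT difference, gave the same tissue difference for most large effects. WT and KO calls share the estimate of spread of each gene, so they are not independent. Over all genes tested, 2010 (17.3%) were higher in KO LPM and 2647 (22.8%) in KO AM. Of the 961 genes at least 2-fold higher in WT LPM, 911 (94.8%) were also called higher in KO LPM, and of the 830 at least 2-fold higher in WT AM, 821 (98.9%) were also called higher in KO AM. Their median differences were 1.69 in WT and 1.51 in KO for the LPM genes and -1.70 and -1.85 for the AM genes. Without the 2-fold rule the shares were 66.3% and 87.1%. Gata6 differed by 4.17 and Pparg by -4.94 in KO, Prg4 by 8.65 and Atp6v0d2 by -8.09, close to their WT values.

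A direct test of whether the tissue difference depends on Bhlhe40 called 29 genes (0.249%), 25 of them also called in WT. Stab1, a scavenger receptor, differed by 1.11 in WT and 4.87 in KO (adjusted p of the difference = 7.6e-06, limma). Tlr1 differed by 2.82 and 4.79 (adjusted p = 0.0033); both WT AM arrays were at or below the olfactory level, so its WT size is not fixed by these arrays. MHC class II genes lay closer in KO: H2-Eb1 differed by -1.60 in WT and 0.08 in KO (adjusted p = 0.0017) and H2-Ab1 by -1.71 and -0.53 (adjusted p = 0.029). Several LPM genes were less distinct in KO: Csf3r differed by 2.95 in WT and 0.81 in KO (adjusted p = 0.0007), Cd93 by 4.09 and 2.16 (adjusted p = 0.0007), Lrg1, a secreted glycoprotein, by 4.67 and 2.39 (adjusted p = 0.0085), and Pglyrp1, a peptidoglycan-binding protein, by 3.40 and 0.89 (adjusted p = 0.047). Fabp4 kept its direction in KO at 0.97, and Bhlhe41 at -2.98.

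**Figure D5:**
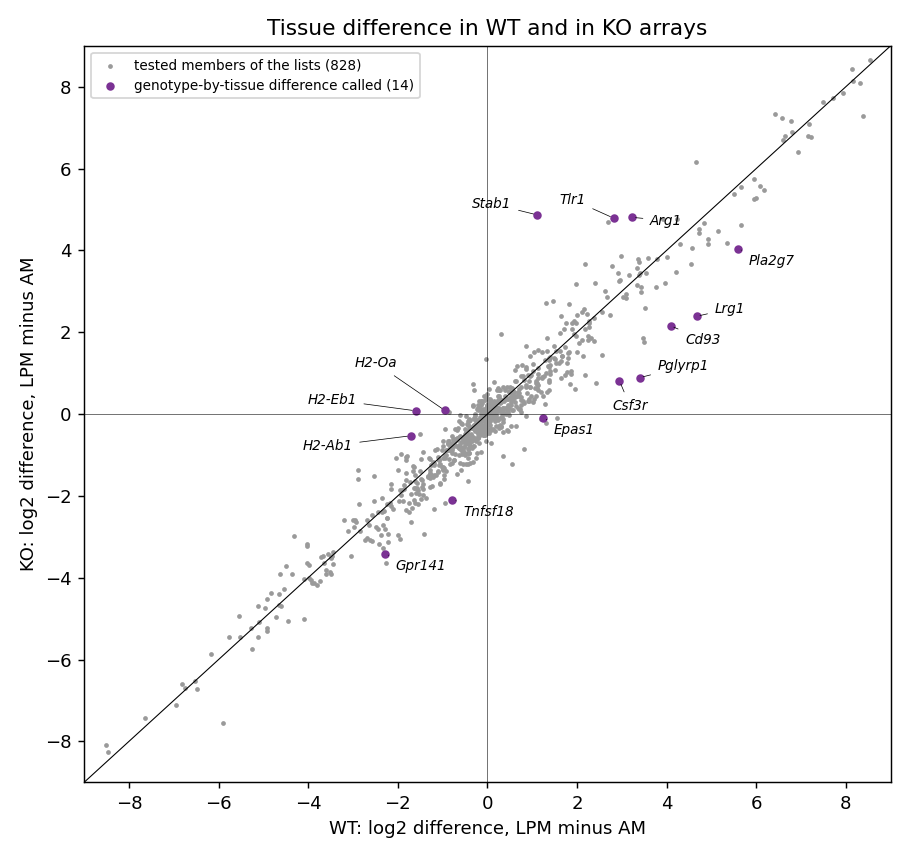
Log2 difference between LPM and AM in the WT arrays (x axis) and in the KO arrays (y axis) for the 828 tested list genes. Purple points are the 14 list genes whose difference depends on genotype in the fit; Stab1 lies above the diagonal, Csf3r and Pglyrp1 below it.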

How the data were processed

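Gene expression was measured on 16 single-colour Affymetrix arrays. The authors deposited log2 values for 30177 probe sets, which the submitters' processing notes credit to RMA (background correction, quantile normalization, probe summary). RMA removes differences in total RNA per cell. The RMA version and the set of arrays it was run on are not stated in the labels. No detection calls were used.

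Of the probe sets, 21789 had 1 gene symbol and were used, 1621 had several and 6767 none here. By Entrez ID 21698 matched the RefSeq table (GRCm38.p6), and 0 symbols changed. For 999 of 19938 genes the brightest of several probe sets was used. Genes above the array median on at least 2 arrays were tested (11634; 8304 were not). Group means over 7 groups and 16 arrays were estimated by limma 3.58.1 under R 4.3.3 (lmFit and eBayes; 9 residual and 6.61 prior degrees of freedom; median SD 0.171), with Benjamini-Hochberg adjustment over all genes tested. The fit was tested on simulated data. The number of arrays limits the precision.

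The comparison, the 44 gene lists and the rule for named genes were chosen with earlier results of these data known. Lists hold 1111 symbols, of which 1018 were measured and 828 tested; lists are described by counts and carry no test. Named are the 12 largest differences each way without array overlap, up to 8 called members per list and direction with uncalled members where needed, a fixed set of regulators, receptors and markers, and the 5 largest genotype effects. Predicted symbols were left out. Bounds (at least) set the brighter mean against the higher of the olfactory 95th percentile and the dim signal, per array. Alternatives were a second quantile normalization, median centring, 3 other dim filters, the mean of probe sets, robust variance with an intensity trend, fitting the 5 arrays alone, array weights, a replicate block and leaving out each array; where 1 AM array remained, it was assumed to vary like the other groups. Promoter sequences are RefSeq's. Figures used Python 3.11.15 and matplotlib 3.10.9.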

Additional observations from a re-analysis of the deposited data

Results flagged for a closer look

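For 14 list genes the difference between LPM and AM itself differed between KO and WT (adjusted p under 0.05 in limma, 29 of 11634 genes in all, against 1524 at an unadjusted p under 0.05). Each value is the log2 difference, LPM minus AM, in KO minus that in WT. Moving toward LPM in KO were Stab1 (3.76), Tlr1 (1.97), H2-Eb1 (1.67), Arg1 (1.58), H2-Ab1 (1.18) and H2-Oa (1.05). Moving toward AM in KO were Pglyrp1 (-2.51), Lrg1 (-2.28), Csf3r (-2.13), Cd93 (-1.92), Pla2g7 (-1.55), Epas1 (-1.34), Tnfsf18 (-1.31) and Gpr141 (-1.13). In the WT tissue with the lower signal, Tlr1, H2-Oa, Tnfsf18 and Gpr141 were at or below the olfactory level on every array. With 2 or 3 arrays a group, no array was screened as an outlier within its group.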

How the results depend on the processing

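Under 15 alternatives the count of called genes ran from 3732 (without AM WT replicate 1) to 4639 (a second quantile normalization), against 4452; the share of calls higher in LPM ran from 50.9% to 60.1%, against 55.4%. Leaving out an array gave 3732 to 4050 calls. Of 545 called named or list genes, 0 changed direction; 14 of the 375 past 2-fold lost their call under at least 1 alternative, as did 79 of the smaller ones. The 14 each lost it without 1 of the AM arrays (Ccr2, Hspa1a and Plac8 elsewhere too): Asns, Ccr2, Cd86, Cyp26a1, H2-DMa, Hspa1a, Lcn2, Lif, Nr1d2, Plac8, Rgs1, Scd2, Sftpc and Vegfa. With the replicate block 4253 genes were called; same-numbered WT AM and LPM arrays did not deviate together (r = -0.052 and -0.022), so the numbers were not taken as pairs. Of the 1791 genes past 2-fold, 1627 to 1791 were also past 2-fold under each alternative, 1627 being without AM WT replicate 2. Other list counts that moved by over 1.5 times stand beside those lists; T and NK markers had 1 call in AM without a dim filter or without LPM WT replicate 3, neutrophil markers 1 in LPM without AM WT replicate 2, and erythrocyte and platelet markers 1 in AM without a dim filter or with the filter at the olfactory level. Signals near the olfactory level limit the largest folds.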

Other observations

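Some gene families outside the lists were taken whole after their values were seen, so they are descriptions only. Each family count, here and in the next paragraph, stands against 21.2% (LPM) and 17.1% (AM) of all genes tested. In LPM, 5 of 6 interferon-induced Ifitm genes were called higher, among them Ifitm6 (at least 59.1-fold), Ifitm3 (log2 difference 6.54) and Ifitm2 (3.78), with Ifitm10 toward AM (-0.38). Of 7 Schlafen genes tested, which restrain growth and viruses, 5 were higher in LPM (Slfn4 by 4.77, Slfn1 by 4.16 with 1 of 2 AM arrays above the olfactory level, Slfn3 by 1.42, Slfn5 at least 6.46-fold and Slfn8 at least 6.56-fold). Of 6 guanylate-binding proteins, 5 were higher in LPM, among them Gbp2b (at least 45.6-fold) and Gbp3 (3.73), and Gbp8 was at least 1.98-fold higher in AM. All 5 Serpinb genes tested were higher in LPM, with Serpinb8 at least 19.7-fold. The endothelin receptor Ednrb read 11.24, 11.28 and 11.27 in LPM and 4.44 and 3.93 in AM, and Padi4, which converts arginine to citrulline in proteins, read 10.19, 10.23 and 10.25 against 3.55 and 3.72.

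AM carried several genes usually tied to epithelia; these and the single genes named here were chosen after their values were seen. Of 7 claudins tested, which form tight junctions, only Cldn1 was called higher in AM (at least 7.56-fold), and 3 were called higher in LPM (Cldn10 at least 2.08-fold, Cldn20 by 1.05 and Cldn22 by 0.50). In AM, Perp, of desmosomes, was at least 19.9-fold higher, F11r, a junctional adhesion molecule, at least 38.5-fold, Marveld2, of tricellular junctions, at least 5.62-fold, and Spint1, a protease inhibitor, 14.9-fold, with 1 of 3 LPM arrays above the olfactory level. Epcam read 8.12 and 7.55 and Cdh1 7.29 and 7.68 on the AM arrays. Krt8 (5.55 and 5.59) read above the medians of these arrays (4.90 and 4.81), Sftpb (4.72 and 4.93) near them and Nkx2-1 (3.99 and 3.66) below them. Of 12 lung epithelial markers tested, 6 were called higher in AM and 1 in LPM. The surfactant gene Sftpc differed between these 2 AM arrays, with values given above. The part of epithelial cells in these values was not tested. Of 14 keratins tested, 3 were called higher in each tissue, near the 21.2% (LPM) and 17.1% (AM) of all genes tested. Among them were Krt19 (at least 55.5-fold) and Krt79 (at least 21.3-fold) in AM and Krt80 (3.22) in LPM. Of 5 sodium-proton exchangers of the Slc9a family, Slc9a4 (-4.68), Slc9a7 (at least 12.3-fold) and Slc9a2 (at least 3.34-fold) were higher in AM, and Slc9a8 (0.08) and Slc9a9 (-0.30) were not called. Other single genes higher in AM were the neuropeptide Gal (at least 33.8-fold), the serotonin transporter Slc6a4 (10.4-fold, with 1 of 3 LPM arrays above the olfactory level), the fatty acid receptor Ffar4 (at least 10.7-fold) and the calcitonin receptor partner Ramp1 (at least 7.51-fold). The metallothionein Mt2 read 10.96 and 11.41 in AM and 5.87, 6.41 and 6.41 in LPM, 31.0-fold higher.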
